A study of Oryza sativa with 14 samples.

Results

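Rice leaves that had been heated for 0.5 h at 42 °C were compared between wild-type plants (WT, cultivar Zhonghua 11) and the transgenic htg3 lines cr12 and cr2, to ask which RNAs depend on HTG3 under heat. The comparison takes in the 7 heat-treated libraries of the 14 in the series: 3 of WT (WT_heat), 2 of cr12 (cr12_heat) and 2 of cr2 (cr2_heat), chosen by their genotype and treatment labels. The plants were potted seedlings at the 4-leaf stage, and all groups share this cultivar, tissue and stage. The other 7 libraries, from the same genotypes without heat (WT_control, 3, and cr12_control and cr2_control, 2 each), served to show whether a difference was there before heating. Each mutant genotype is 1 transgenic line, the sources used here do not give the edit of either, and nothing in the labels shows that replicates are separate plants, so that p-values cover the spread between these libraries, which may be technical.

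Heat shock factors (HSFs) are transcription factors that bind heat shock elements in DNA and switch on chaperone genes when proteins begin to unfold. Class A HSFs carry an activation domain, while class B and C members lack the typical one. Among their targets are small heat shock proteins (sHSPs), which hold unfolding proteins in a soluble state, and HSP70, HSP90 and HSP100 chaperones, which refold them or pull them out of aggregates. HTG3 is known from work on rice heat tolerance as the class A factor HSFA2d (LOC_Os03g06630), a link that rests on background knowledge since the labels name htg3 without a locus. JAZ proteins, repressors of jasmonate responses, have been linked to it in the same work.

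The heat-treated libraries hold 94.3 M to 99.4 M estimated counts each (M, mega), and replicates correlated at 0.966 to 0.973 on the log2 scale of CPM, counts scaled by library size and given per 1 M counts. On principal components of these 7 libraries, PC1 (28.3% of variance) put the WT libraries between -84.9 and -32.7 and the htg3 libraries between 18.8 and 81.8. PC2 (22.2%) parted cr12, at -59.7 and -94.3, from cr2, at 47.2 and 59.1. WT_heat replicate 2 stood apart at -86.9 on PC3 (15.6%). In leaf tissue taken whole, fewer cells of a type and less RNA per cell cannot be told apart.

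HSFA2d itself stood at 447, 685 and 459 CPM in the heat-treated WT libraries, at 486 and 550 CPM in cr12 and at 249 and 263 CPM in cr2. The cr12 libraries lay within the WT range and both cr2 libraries lay below every WT library. The htg3 lines together differed from WT by -0.54 ± 0.35 on the log2 scale (SE, adjusted p = 0.38), cr12 by -0.03 ± 0.42 (0.99) and cr2 by -1.05 ± 0.43 (0.16), none of which passed the test. Without heat the gene stood at 82.6, 91.6 and 71.2 CPM in WT, 137 and 32.0 CPM in cr12 and 86.8 and 105 CPM in cr2. An edit in a coding sequence can leave the amount of RNA as it was, so these levels do not check the labels.

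After heat, 2077 of 28823 tested genes (7.21%) differed between the htg3 lines, each weighted equally, and WT, 999 of them higher (3.47%) and 1078 lower (3.74%) in the htg3 lines. A gene counts as called when its p from edgeR's quasi-likelihood test, adjusted by Benjamini-Hochberg, is under 0.05. Of these genes, 2061 had the same sign in both lines, and 158 of the 2061 were moved by 1 line only, as defined further on. The remaining 1903 genes, called both-line genes here, comprise 964 that were higher and 939 that were lower. The higher genes had the larger changes, with a median log2 difference of 0.94 against -0.52 for the lower ones, and 442 of the 587 both-line genes that changed at least 2-fold were higher. Of the both-line genes 535 (309 higher and 226 lower) also passed the test in each line alone, where 5.53% of tested genes were called in cr12 (2.31% higher and 3.22% lower) and 7.81% in cr2 (4.15% higher and 3.66% lower). Another 1097 passed in 1 line and 271 in neither. Both lines were compared with the same WT libraries, so their agreement in sign is what the definition asks for and is not a result. The 4 htg3 libraries lay wholly above or wholly below the 3 WT libraries for 1743 of the both-line genes, and for 17.5% of all tested genes (8.74% higher and 8.76% lower), which by itself shows nothing since both-line genes were selected on the same values.

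The numbers moved with single libraries. The 1903 both-line genes came to 642 without WT_heat replicate 1, 988 without WT_heat replicate 2, 1186 and 1137 without cr12_heat replicate 1 and 2, and 694 without cr2_heat replicate 2. The 535 called in each line came to 191, 314 and 906 without WT_heat replicate 1, 2 and 3, to 237 and 90 without cr12_heat replicate 1 and 2, and to 66 without cr2_heat replicate 2. A fit of the heat-treated libraries alone called 758 genes between the htg3 lines and WT in place of 2077. Of the listed genes described below for both lines, AOS1, LOC_Os03g16920, LOC_Os01g04380 and MCM7 kept their calls in it. JAZ3 (adjusted p = 0.064), LOC_Os01g04350 (0.11), LOC_Os02g03570 (0.091), GolS1 (0.066), DREB2B (0.083), HSFC2b (0.059), MCM2 (0.053), MCM3 (0.071), MCM4 (0.10) and CYCB1;1 (0.095) did not. Leaving out both WT_heat replicate 2 and cr2_control replicate 2, which stand apart from their groups, ended the calls of JAZ3 (0.061), LOC_Os01g04350 (0.11), GolS1 (0.064), DREB2B (0.13), HSFC2b (0.088), MCM3 (0.081), MCM4 (0.13) and CYCB1;1 (0.12).

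**Figure D1:**
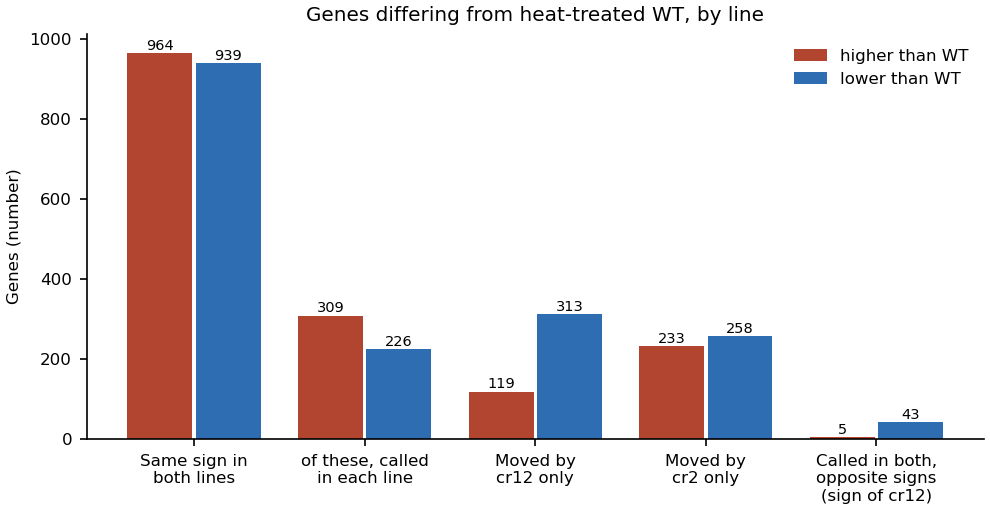
Number of genes (vertical axis) that differed from heat-treated WT in each class, higher (red) and lower (blue) than WT. The both-line genes are nearly balanced at 964 higher and 939 lower, while the genes moved by cr12 only lean to the lower side, 313 against 119.

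AOS1 and JAZ3 of the jasmonate pathway were among the both-line genes that rose, 1 gene each of the lists of 9 jasmonate genes and 13 JAZ genes tested. Over both lines 1 of 9 and 1 of 13 do not set these lists apart, where 3.47% of all tested genes were called higher. In cr12 alone 2 of the 9 and 3 of the 13 were called higher (2.31% of all tested genes), in cr2 alone 2 and 1 (4.15%). DESeq2 called 2 JAZ genes over both lines, 5 in cr12 and 1 in cr2, and limma voom 1, 4 and 1. Both tools called 2 jasmonate genes higher in each of these comparisons. AOS1, an allene oxide synthase of the jasmonate pathway, stood at 38.8, 59.4 and 53.8 CPM in WT, at 87.1 and 101 CPM in cr12 and at 82.9 and 79.2 CPM in cr2. Every htg3 library lay above every WT library, a rise of 0.78 ± 0.13 on the log2 scale (adjusted p = 0.0069), or 1.72-fold. It was called in each line (0.89 ± 0.15 in cr12 and 0.68 ± 0.15 in cr2) and kept its call without any 1 of the heat-treated libraries. Without heat it was not called by edgeR (0.20 ± 0.13, adjusted p = 0.46). Untreated cr2 stood at 22.2 and 21.1 CPM, above every WT library (16 to 18.8 CPM), and cr12 at 19.2 and 18.4 CPM. The htg3 effect on AOS1 with heat minus that without heat was 0.58 ± 0.18, not called by edgeR (0.18).

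JAZ3, a repressor of this pathway, stood at 65.5, 54.6 and 54.6 CPM in WT, at 89.9 and 119 CPM in cr12 and at 71.5 and 109 CPM in cr2. The groups did not overlap, and the rise of 0.74 ± 0.14 (adjusted p = 0.013) was called in cr12 (0.85 ± 0.17, 0.018) and in cr2 (0.63 ± 0.17, 0.04). Without heat its log2 difference was -0.01 ± 0.14. JAZ3 was 1 of 13 tested JAZ genes that passed the test, where 7.21% of all tested genes did (3.47% higher). The median log2 difference of the JAZ list was 0.62, against -0.02 over all tested genes, and 12 of the 13 values were positive. The study may have picked JAZ genes from these very libraries, and their direction is then no independent evidence.

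Among the JAZ genes that were not called, JAZ1 gave 0.08 ± 0.13 and JAZ7 0.23 ± 0.15 at the small end, and JAZ13 0.90 ± 0.48 and JAZ2 2.37 ± 1.14 at the large end. JAZ2 was barely detected, at 0.0215 to 0.188 CPM in WT and 0.249 to 1.46 CPM in the htg3 lines. JAZ4 had the only negative value, -0.52 ± 0.50. JAZ10 and JAZ12 rose in cr12, by 1.23 ± 0.32 (adjusted p = 0.049) and 1.15 ± 0.28 (0.036), while in cr2 their differences were 0.23 ± 0.33 and 0.19 ± 0.28. Without heat both cr2 libraries already lay above every WT library for both genes. They stood at 29.8 and 25.4 against 7.75 to 11.8 CPM for JAZ10. For JAZ12 they stood at 10.1 and 8.56 against 4.02 to 4.71 CPM. Untreated cr12 lay within the WT range for JAZ10 (10.9 and 10.6 CPM) and above it for JAZ12 (6.28 and 7.21 CPM). Without heat edgeR called 0 of the 13 JAZ genes, with 4 at an unadjusted p under 0.05, limma voom 0 and DESeq2 3 higher. By edgeR 7 of the 13 untreated values were positive. MYC2, the transcription factor that JAZ proteins repress, rose in cr12 by 0.76 ± 0.16 (0.025) and differed by 0.18 ± 0.17 in cr2. By edgeR the lines did not pass the test against each other for any of these 3 (adjusted p = 0.15 for JAZ10, 0.10 for JAZ12 and 0.093 for MYC2), so the rise was not assigned to 1 line. Between the lines edgeR and limma voom called 0 of the 13 JAZ genes, with 3 at an unadjusted p under 0.05, and DESeq2 called 2 higher in cr12. Of the 9 jasmonate genes edgeR and limma voom called 0, with 2 at an unadjusted p under 0.05, and DESeq2 called 1 higher and 1 lower in cr12.

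Of the jasmonate synthesis and signalling list 1 of 9 tested genes, AOS1, was called over both lines, and the median log2 difference was 0.15. AOC, the cyclase that acts after AOS, rose in cr2 (0.57 ± 0.16, adjusted p = 0.048) and differed by 0.21 ± 0.16 in cr12, with no call between the lines by edgeR (0.29). The receptor genes COI1a, COI1b and COI2 gave -0.17, -0.15 and 0.01 on the log2 scale, without a call.

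Of the chaperone genes, LOC_Os03g16920 and LOC_Os01g04380 fell in each line. The HSP70 gene LOC_Os03g16920 stood at 709, 776 and 995 CPM in WT, at 372 and 414 CPM in cr12 and at 399 and 555 CPM in cr2. All htg3 libraries lay below all WT libraries, a fall of 0.93 ± 0.14 on the log2 scale (log2 difference -0.93, adjusted p = 0.0053), or 1.91-fold, with calls in cr12 (-1.07 ± 0.18) and cr2 (-0.79 ± 0.18) and in every fit that left out 1 heat-treated library. Without heat its log2 difference was -0.48 ± 0.15, not called by edgeR (adjusted p = 0.12). In that comparison DESeq2 called 2 HSP70 genes lower and limma voom 1. After heat LOC_Os03g16920 was 1 of 8 tested HSP70 genes to pass, where 7.21% of all tested genes did (3.74% lower). The count does not set the list apart. Another of the list, LOC_Os01g62290, gave -0.05 ± 0.25. LOC_Os03g16880, close to LOC_Os03g16920 by its ID, had no count in heat-treated WT and 0.0425 to 0.146 CPM in the htg3 libraries, at least 2.16-fold higher, without a call (adjusted p = 0.18).

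The sHSP gene LOC_Os01g04380 stood at 759, 934 and 1010 CPM in WT, at 456 and 566 CPM in cr12 and at 435 and 601 CPM in cr2. The groups did not overlap, and the log2 difference of -0.81 ± 0.16 (adjusted p = 0.016) was nearly the same in cr12 (-0.82 ± 0.20) and cr2 (-0.80 ± 0.20). It too kept its call without any 1 heat-treated library. Without heat the htg3 libraries lay above WT, at 1.27 to 2.31 CPM against 0.995 to 1.2 CPM (0.58 ± 0.19, adjusted p = 0.13). The htg3 effect with heat minus that without heat was -1.39 ± 0.25, not called by edgeR (0.058). By its ID LOC_Os01g04380 is the last of 5 consecutive sHSP loci on chromosome 1. The authors' counting could have mixed these loci by shared reads, which was not tested here. Their response to heat was not alike. LOC_Os01g04350 stood at a mean of 195 CPM in untreated and 306 CPM in heat-treated WT, LOC_Os01g04360 at 0.0568 and 567 CPM. LOC_Os01g04350 of this run fell from 283, 337 and 299 CPM in WT to 205 and 245 CPM in cr12 and 259 and 189 CPM in cr2 (-0.45 ± 0.12, adjusted p = 0.048). It was called in neither line alone (-0.44 ± 0.15, 0.10, in cr12 and -0.45 ± 0.15, 0.086, in cr2). The other 3 loci of the run were lower in every htg3 library than in any WT library, or overlapped by 1 library in the case of LOC_Os01g04340, without a call: LOC_Os01g04340 gave -1.79 ± 0.67 (0.14), LOC_Os01g04360 -0.81 ± 0.35 (0.19) and LOC_Os01g04370 -1.10 ± 0.36 (0.089). LOC_Os01g04350 lost its call in 6 of 7 fits that left out 1 heat-treated library. Its adjusted p was 0.074, 0.13 and 0.054 without WT_heat replicate 1, 2 and 3, 0.11 and 0.059 without cr12_heat replicate 1 and 2, and 0.13 without cr2_heat replicate 2. It was 0.056 with the htg3 libraries as 1 group.

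LOC_Os02g03570, listed with the sHSPs by family name, stood at 2.67, 1.97 and 2.73 CPM in WT, at 1.22 and 1.94 CPM in cr12 and at 1.15 and 1.08 CPM in cr2. All htg3 libraries lay below WT, by -0.89 ± 0.19 (adjusted p = 0.019), with a call in cr2 (-1.14 ± 0.23, 0.017) and none in cr12 (-0.64 ± 0.23, 0.12). Unlike the other sHSP genes named, it stood higher in untreated WT, at 8.22, 9.16 and 8.91 CPM, than after heat. Both untreated cr2 libraries already lay below every WT library, at 5.2 and 4.76 CPM. The untreated cr12 libraries, at 8.61 and 12.1 CPM, did not. The call was lost without WT_heat replicate 1 (0.06) or cr2_heat replicate 2 (0.056) and by limma voom (0.052). In all, 3 of 20 tested sHSP genes were called lower over both lines, where 3.74% of all tested genes were, and 0 higher by edgeR, DESeq2 or limma voom. In cr12 alone 1 of the 20 was called lower (3.22% of all tested genes) and in cr2 alone 2 (3.66%). Over both lines the median log2 difference of the list was -0.35 with 18 of 20 values negative. The count of 3 came to 1 without WT_heat replicate 1 and also 1 without cr2_heat replicate 2. The sHSP cluster on chromosome 3 was among the members that were not called, with LOC_Os03g16020 at -0.01 ± 0.58 and LOC_Os03g16030 at -0.01 ± 0.48. Summed over the list, sHSP RNA came to 33800 to 43100 CPM in WT, 37700 to 48900 CPM in cr12 and 26500 to 30900 CPM in cr2, so that both cr2 libraries lay below and the cr12 libraries lay within or above the WT range.

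Of the list of other heat-response genes GolS1 and DREB2B fell, 2 of 7 tested, where 3.74% of all tested genes fell. GolS1 makes galactinol, the precursor of protective raffinose sugars, and stood at 488, 754 and 649 CPM in WT, at 423 and 433 CPM in cr12 and at 378 and 394 CPM in cr2. DREB2B codes for a transcription factor of drought and heat responses and stood at 74.5, 82.1 and 81.0 CPM in WT, at 70.7 and 61.3 CPM in cr12 and at 55.8 and 39.7 CPM in cr2. For both genes every htg3 library lay below every WT library. The log2 differences were -0.63 ± 0.14 (adjusted p = 0.021) for GolS1 and -0.50 ± 0.14 (0.048) for DREB2B. Both were called in cr2 (0.028 and 0.024) and not in cr12 (-0.56 ± 0.17, 0.073, for GolS1 and -0.26 ± 0.16, 0.38, for DREB2B). The GolS1 call was lost without WT_heat replicate 2 (0.063) or cr2_heat replicate 2 (0.058). That of DREB2B was lost without WT_heat replicate 1 (0.086), 2 (0.11) or 3 (0.076), cr12_heat replicate 1 (0.06) or 2 (0.12), or cr2_heat replicate 2 (0.14), or with the htg3 libraries as 1 group (0.12).

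Of the HSF family itself 1 of 25 tested genes was called over both lines. It was lower, as were 3.74% of all tested genes, so the count does not set the family apart. DESeq2 called 3 lower and 0 higher, and limma voom 1 lower and 1 higher. The median log2 difference was -0.08. HSFC2b, a class C member, stood at 5.50, 8.52 and 6.79 CPM in WT, at 3.96 and 4.93 CPM in cr12 and at 3.63 and 2.85 CPM in cr2. No htg3 library reached the lowest WT library, with a log2 difference of -0.87 ± 0.24. It was called in cr2 (-1.10 ± 0.30, 0.046) and not in cr12 (-0.64 ± 0.29, 0.22). The adjusted p of 0.0496 was close to the threshold, and the call was lost in each of the 7 fits that left out 1 heat-treated library (adjusted p from 0.06 without cr2_heat replicate 1 to 0.15 without WT_heat replicate 2 or cr2_heat replicate 2) and with the htg3 libraries as 1 group (0.076). Without heat HSFC2b stood at 1.28, 1.71 and 1.42 CPM in WT, 1.38 and 1.83 CPM in cr12 and 0.953 and 0.474 CPM in cr2. Both untreated cr2 libraries lay below every WT library and the cr12 libraries did not. Among the HSF genes that were not called, LOC_Os03g12370 gave -0.04 ± 0.15 at the small end. HSFB4a at 1.60 ± 2.18 and HSFB4c at 1.96 ± 0.80 lay at the large end, both at under 4 CPM in every library.

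**Figure D2:**
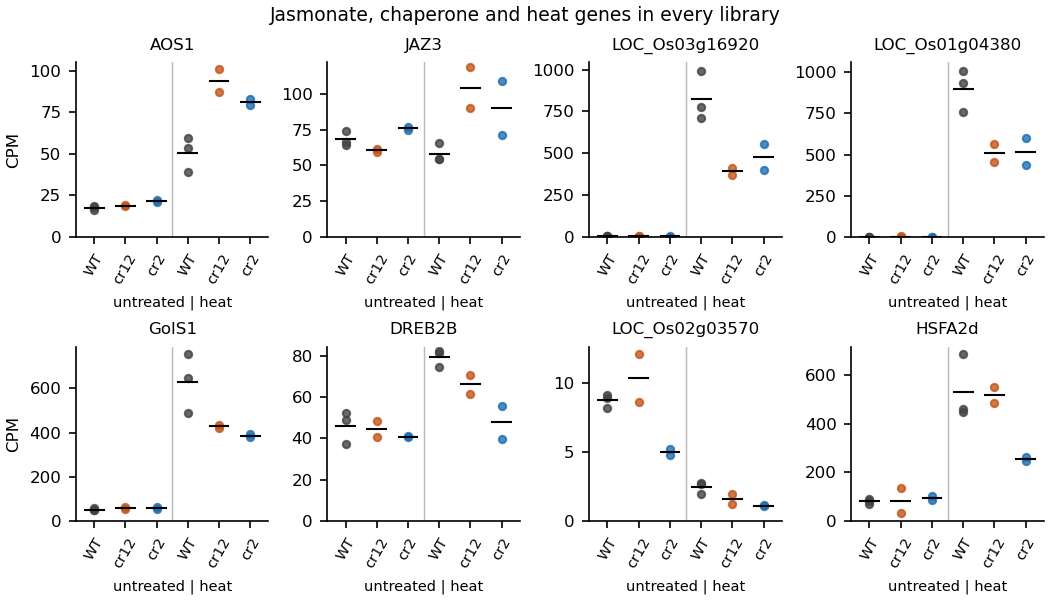
CPM of 8 genes in every library (points) with the mean of each group (black bars), untreated left and heat-treated right of the grey line. After heat AOS1 and JAZ3 are higher and LOC_Os03g16920, LOC_Os01g04380, GolS1, DREB2B and LOC_Os02g03570 lower in all 4 htg3 libraries than in the 3 WT libraries, while HSFA2d is lower in the cr2 libraries and overlaps WT in cr12.

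Of the genes of dividing cells 5 rose in the htg3 lines after heat: MCM2, MCM3, MCM4, MCM7 and CYCB1;1. MCM2 to MCM7 form the helicase that opens DNA for replication, PCNA is the clamp that holds the polymerase, and B-type cyclins with CDKB kinases drive entry into mitosis. Over both lines 5 of 12 tested genes were called higher, where 3.47% of all tested genes were, and 0 lower by edgeR, DESeq2 or limma voom. In cr12 alone 2 of the 12 were called higher (2.31% of all tested genes) and in cr2 alone 6 of the 12 (4.15%). All 12 values were positive in both lines, and the median log2 difference was 1.61 against -0.02 over all tested genes. All 12 had an unadjusted p under 0.05, but the adjusted p of the other 7 was over 0.05.

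MCM2 stood at 4.90, 3.81 and 9.37 CPM in WT, at 18.3 and 12 CPM in cr12 and at 17.4 and 23.0 CPM in cr2. The groups did not overlap, and the rise of 1.54 ± 0.27 on the log2 scale (adjusted p = 0.0095), or 2.91-fold, was called in cr12 (1.33 ± 0.30) and in cr2 (1.74 ± 0.30). MCM7 stood at 6, 6.33 and 7.47 CPM in WT, at 21.6 and 28.0 CPM in cr12 and at 9.73 and 16.5 CPM in cr2, a rise of 1.45 ± 0.27 (0.011) with no overlap between the groups. It was called in cr12 (1.91 ± 0.30, 0.0085) and not in cr2 (0.99 ± 0.30, 0.068). The MCM7 call was lost without WT_heat replicate 1 (0.052).

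MCM3 stood at 1.89, 3.04 and 5.93 CPM in WT, at 14.3 and 7.11 CPM in cr12 and at 10.9 and 21.1 CPM in cr2 (log2 difference 1.85 ± 0.40, adjusted p = 0.021). MCM4 stood at 1.21, 1.99 and 5.37 CPM in WT, at 10.8 and 5.39 CPM in cr12 and at 9.20 and 14.7 CPM in cr2 (1.78 ± 0.47, 0.041). The mitotic cyclin CYCB1;1 stood at 1.67, 3 and 7.37 CPM in WT, at 13.6 and 8.78 CPM in cr12 and at 12.7 and 17.3 CPM in cr2 (1.69 ± 0.43, 0.036). In cr2 these 3 genes were called (adjusted p = 0.018, 0.035 and 0.034). In cr12 they were not, at 1.56 ± 0.45 for MCM3 (0.063), 1.5 ± 0.52 for MCM4 (0.11) and 1.48 ± 0.48 for CYCB1;1 (0.093). In all 3 genes WT_heat replicate 3 was the highest WT library and came close to the lowest htg3 library, cr12_heat replicate 2. Each of these 3 calls was lost without WT_heat replicate 1 (0.069 for MCM3, 0.11 for MCM4 and 0.089 for CYCB1;1), WT_heat replicate 2 (0.069, 0.12 and 0.11), cr12_heat replicate 1 (0.053, 0.10 and 0.084) or cr2_heat replicate 2 (0.07, 0.12 and 0.10).

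Among the members that were not called, CDKB1;1 gave 0.47 ± 0.15 (adjusted p = 0.081) and PCNA 0.81 ± 0.23 (0.055), and CDKB2;1 gave 1.72 ± 0.48 (0.0504) and CYCB2;2 1.94 ± 0.55 (0.054). Summed over the 12 genes, WT stood at 40.4, 45.9 and 85.1 CPM, cr12 at 162 and 110 CPM and cr2 at 129 and 199 CPM. All htg3 libraries lay above all WT libraries, with WT_heat replicate 3 closest. No gene of the list was at 0 in any library. The number that rose was 1 without WT_heat replicate 1, 2 without WT_heat replicate 2, cr12_heat replicate 1 or cr2_heat replicate 2, and 11 without WT_heat replicate 3.

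Without heat the same sum was 27.8 to 33.2 CPM in WT, 42.5 to 44.9 CPM in cr12 and 44 to 45.4 CPM in cr2. The htg3 libraries lay above the WT libraries there as well, with a median log2 difference over the 12 genes of 0.73. In that comparison edgeR called 0 of the 12, with 6 at an unadjusted p under 0.05, 2 called by DESeq2 and 0 by limma voom. The difference between the htg3 effects with and without heat was called for 0 of the 12 by edgeR, with 2 at an unadjusted p under 0.05, 1 called by DESeq2 and 0 by limma voom. These genes mark dividing cells of the leaf base or shoot apex, tissue that a seedling leaf sample can include in varying amounts, and its part in the result was not tested.

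**Figure D3:**
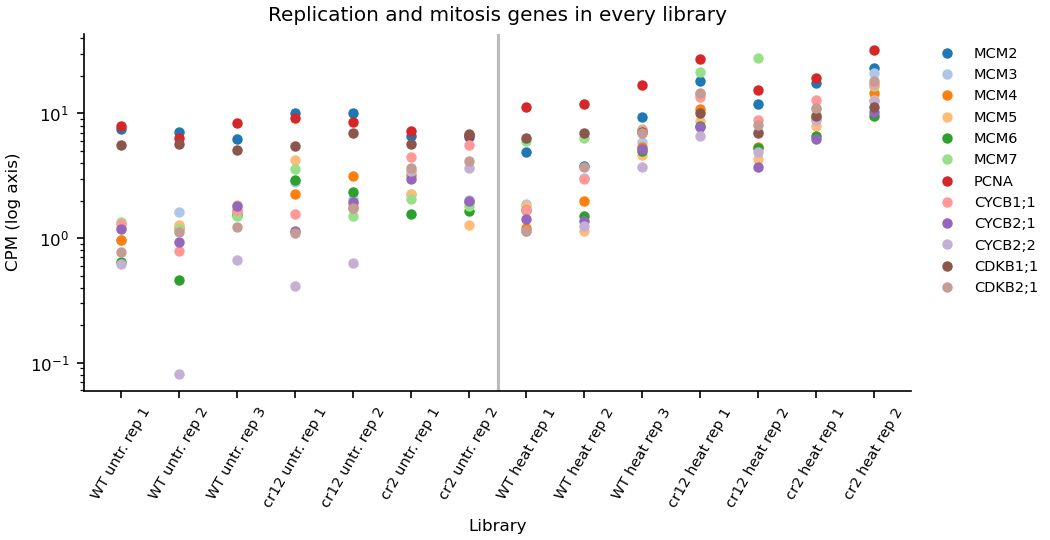
CPM (log axis) of the 12 replication and mitosis genes in every library, untreated left and heat-treated right of the grey line, 1 colour per gene. In the heat-treated WT libraries the summed level is 40.4 to 85.1 CPM and in the heat-treated htg3 libraries 110 to 199 CPM.

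Loci outside the lists carry no name in the files. Among those called in each line, without overlap between the groups and with a mean of at least 1 CPM in the higher group, the pair with the highest and the pair with the lowest log2 difference are given. Both-line genes with lower log2 differences did not meet these limits. LOC_Os05g50390 had no count in heat-treated WT and 1.93, 2.05, 2.61 and 2.12 CPM in the htg3 libraries, at least 48.8-fold higher when WT is set at a floor of 12 counts over the group. LOC_Os01g62740 likewise had no count in heat-treated WT and 1.94, 1.79, 1.73 and 2.04 CPM in the htg3 libraries, at least 42.2-fold higher. Both were already detected in untreated htg3 libraries and in no untreated WT library. LOC_Os11g22350 stood at 14.8, 10.6 and 11.4 CPM in WT and at 0.294, 0.829, 0.779 and 0.415 CPM in the htg3 libraries, a log2 difference of -4.41 ± 0.44 (adjusted p = 0.00048). LOC_Os07g27300 stood at 25.3, 28.1 and 25.8 CPM in WT and at 7.03, 4.65, 5.21 and 4.30 CPM in the htg3 libraries, -2.33 ± 0.15 (1.2e-05). Both were also lower without heat, LOC_Os11g22350 by -1.83 ± 0.38 (adjusted p = 0.027) and LOC_Os07g27300 by -1.90 ± 0.15 (5.1e-05). These 4 loci kept their calls in every fit that left out 1 heat-treated library. Of the both-line genes 25 were detected in the htg3 lines with no count in heat-treated WT, and 9 were detected in WT with no count in the 4 htg3 libraries. The same was not counted over all tested genes. Both-line genes were selected on these same values, so 25 against 9 is not a result.

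The both-line genes were spread over the chromosomes at 5.29% to 7.39% of the tested genes of each. Among loci in chromosome order, 106 stretches of 2 and 11 stretches of 3 adjacent tested genes were both-line genes of the same direction. Adjacent both-line genes of opposite direction were not counted. The number of stretches that the share of both-line genes alone would give was not worked out. The higher genes had a median of 907 counts per library and the lower genes 2170, against 612 over all tested genes, so that the lower genes were measured with less counting error.

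Without heat, 885 genes (3.07% of those tested) differed between the htg3 lines and WT, 1.74% higher and 1.33% lower. None of these libraries is part of the heat comparison. Genes called in both treatments numbered 362, which is 17.4% of those called after heat and 40.9% of those called without heat, and 353 of them had the same direction. The higher and the lower both-line genes differed in this respect. Of the 964 higher genes 812 had a positive log2 difference without heat too, with a median of 0.53, and 267 were called there with the same sign. Of the 939 lower genes 637 had a negative difference, with a median of -0.09, and 66 were called with the same sign. Over all tested genes the median without heat was -0.01.

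The test of the difference itself, the htg3 effect with heat minus that without heat, called 33 genes (0.114% of those tested, 0.0694% with a positive and 0.0451% with a negative difference), while 3987 had an unadjusted p under 0.05. Of the both-line genes 26 were among the 33, 15 higher and 11 lower. The number moved from 33 to 0 without WT_control replicate 2, 1 without WT_control replicate 1 or cr12_heat replicate 2, 2 without cr2_control replicate 2, 3 without cr2_control replicate 1, and 5 without WT_control replicate 3 or WT_heat replicate 1. It was 12 without cr2_heat replicate 2, 13 without cr12_control replicate 2, 15 without cr12_heat replicate 1 or cr2_heat replicate 1, and 84 without WT_heat replicate 3. Of the 26 both-line genes 18 (7 higher and 11 lower) were not called without heat, and these rest on the same unstable count. For the other both-line genes, a missing call without heat does not show that the difference depends on heat. The 885 genes came to 331, 467 and 516 without WT_control replicate 1, 2 and 3, 431 without cr12_control replicate 2 and 487 without cr2_control replicate 2.

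**Figure D4:**
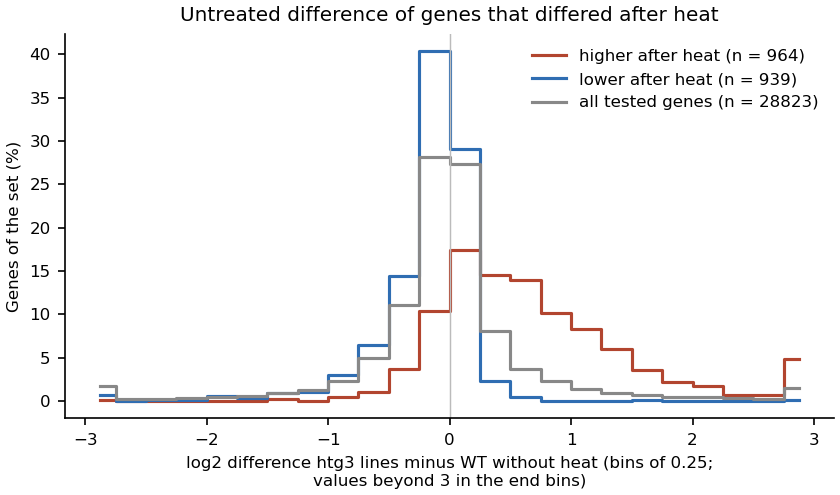
Share of genes (vertical axis) by their log2 difference between the htg3 lines and WT without heat (horizontal axis, bins of 0.25) for both-line genes that were higher (red) or lower (blue) after heat and for all tested genes (grey). The red line is shifted to the right, with a median of 0.53, and the blue line to the left by less, with a median of -0.09.

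Genes moved by 1 line were kept apart. They passed the test in that line and not in the other, and the lines differed from each other by their own test in the same direction. The test of cr12 against cr2 after heat called 1620 genes (5.62%), 2.18% higher and 3.45% lower in cr12 than in cr2. By this definition 432 genes were moved by cr12 only, 119 higher and 313 lower than WT, and 491 by cr2 only, 233 higher and 258 lower. A further 48 genes were called in both lines with opposite signs, 43 of them lower in cr12 and higher in cr2. In the genes lower in cr12 only, the median log2 difference was -0.67 in cr12 and 0.08 in cr2. In the genes lower in cr2 only, it was -0.91 in cr2 and 0.02 in cr12. Without heat the first of these sets had a median of -0.22 in cr12 and 0.10 in cr2. The second had -0.44 in cr2 and 0.08 in cr12. With 2 libraries a line these counts depended on single libraries. The cr12 count of 432 came to 24 without cr12_heat replicate 2, 134 without WT_heat replicate 1, and 187 and 140 without cr2_heat replicate 1 and 2. The cr2 count of 491 came to 44 and 256 without cr2_heat replicate 2 and 1, and to 51 without cr12_heat replicate 2.

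In cr2 alone edgeR called 6 of 25 HSF genes lower and 0 higher, with 13 at an unadjusted p under 0.05 in either direction, where 3.66% of all tested genes were called lower. DESeq2 called 8 lower and 0 higher, limma voom 7 lower and 1 higher, and the median log2 difference was -0.43. In cr12 edgeR called 0 of the 25, with 3 at an unadjusted p under 0.05, 1 called higher by DESeq2 and 2 by limma voom, and the median was 0.19. Besides HSFC2b the 5 genes that fell in cr2 were HSFA2c, HSFA2e, HSFA4b, HSFA4d and HSFB1, and all 5 also differed between the lines. HSFA4d stood at 24.8, 29.3 and 35.5 CPM in WT, 39.1 and 40.7 CPM in cr12 and 14.5 and 13.3 CPM in cr2. The cr12 libraries lay above and the cr2 libraries below every WT library (-1.10 ± 0.23 in cr2, adjusted p = 0.019, and 1.52 ± 0.25 between cr12 and cr2, 0.0067). HSFB1, a class B factor, stood at 42.7, 57.9 and 48.3 CPM in WT, 44.6 and 51.8 CPM in cr12 and 31.9 and 27.5 CPM in cr2 (-0.74 ± 0.14 in cr2, 0.014).

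HSFA2e stood at 112, 121 and 118 CPM in WT, 113 and 130 CPM in cr12 and 84.9 and 88.9 CPM in cr2 (-0.43 ± 0.09 in cr2, adjusted p = 0.017). HSFA2c stood at 1220, 1460 and 1440 CPM in WT, 1460 and 1620 CPM in cr12 and 946 and 935 CPM in cr2 (-0.54 ± 0.14, 0.042). HSFA4b stood at 31.7, 40.3 and 34.0 CPM in WT, 31.3 and 40.8 CPM in cr12 and 23.7 and 22.4 CPM in cr2 (-0.62 ± 0.13, 0.02). In these 3 genes both cr2 libraries lay below all WT and cr12 libraries. In untreated leaves both cr2 libraries also lay below every WT library for HSFA2c (13.8 and 11.1 against 16.8 to 17.9 CPM) and HSFB1 (16.4 and 15.4 against 17.1 to 21 CPM). The same held for HSFA4d (4.25 and 3.29 against 4.31 to 6.62 CPM) and HSFA4b (11.5 and 11.4 against 11.8 to 13.2 CPM). For HSFA2e the untreated cr2 libraries overlapped WT (38.1 and 40.9 against 40.3 to 43.8 CPM). Without cr2_heat replicate 2 none of the 5 kept its call in cr2 (adjusted p = 0.16 for HSFA4d, 0.14 for HSFB1, 0.087 for HSFA2e, 0.22 for HSFA2c and 0.16 for HSFA4b). Without cr2_heat replicate 1 HSFB1 did and HSFA4d (0.061), HSFA2e (0.063), HSFA2c (0.11) and HSFA4b (0.056) did not, and HSFA2c also lost its call without WT_heat replicate 2 (0.083) or 3 (0.057). In the fit of the heat-treated libraries alone HSFA2c (0.06), HSFA2e (0.062) and HSFA4b (0.067) lost their calls in cr2, as did HSFA2c without the 2 libraries that stand apart (0.069).

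The heat-inducible coactivator gene MBF1c and the HSP90 gene LOC_Os08g39140 differed widely between the cr2 replicates. MBF1c stood at 874 CPM in cr2_heat replicate 1 and at 37.4 CPM in replicate 2, against 1130 to 1550 CPM in WT. LOC_Os08g39140 stood at 10400 and 2250 CPM in these libraries, against 11400 to 13600 CPM in WT. Neither gene was called in cr2 (adjusted p = 0.29 and 0.53), and both were named after their values were seen.

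Other listed genes moved by cr2 only were clock, senescence and folding genes. The clock repressors PRR59 and PRR95 fell in cr2, by 0.60 ± 0.11 (log2 difference -0.60, adjusted p = 0.011) and 0.64 ± 0.10 (-0.64, 0.0078). PRR59 stood at 44.2, 56.3 and 53.7 CPM in WT, 49.0 and 51.3 CPM in cr12 and 35.3 and 32.3 CPM in cr2, and PRR95 at 96.5, 82.2 and 99.3 CPM in WT, 84.4 and 83.2 CPM in cr12 and 59.8 and 59.5 CPM in cr2. In both genes the cr2 libraries lay below all others. This was so without heat as well, at 72.7 and 80.4 CPM in cr2 against 84 to 94 CPM in WT for PRR59. For PRR95 the untreated levels were 233 and 207 CPM in cr2 against 293 to 295 CPM in WT. PRR95 was also called over both lines (-0.39 ± 0.09, 0.023), 1 of 9 tested clock genes, where 3.74% of all tested genes were called lower. However, PRR95 differed between the lines (0.49 ± 0.11, 0.028).

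NAP, a regulator of leaf senescence, stood at 8.75, 10.9 and 10.4 CPM in WT, 11.4 and 17.2 CPM in cr12 and 3.06 and 2.72 CPM in cr2. SGR, which starts the breakdown of chlorophyll, stood at 31.1, 39.8 and 32.4 CPM in WT, 46.1 and 58.7 CPM in cr12 and 18.8 and 17.9 CPM in cr2. For both genes the cr12 libraries lay above and the cr2 libraries below WT. Both untreated cr2 libraries also lay below every untreated WT library. They stood at 20.6 and 9.97 CPM against 24.8 to 46.8 CPM for NAP, and at 34.1 and 17.9 CPM against 36 to 48.4 CPM for SGR. The fall in cr2 was called (-1.79 ± 0.34, adjusted p = 0.012, for NAP and -0.91 ± 0.24, 0.04, for SGR), as was the difference between the lines (2.31 ± 0.36 and 1.51 ± 0.26). The disulfide isomerase gene PDIL1-1 of the endoplasmic reticulum stood at 461, 465 and 458 CPM in WT, 467 and 456 CPM in cr12 and 595 and 595 CPM in cr2. It rose in cr2 by 0.37 ± 0.08 (0.019), 1 of 6 tested folding genes, where 4.15% of all tested genes were called higher. PDIL1-1 was also higher without heat in the htg3 lines together (0.34 ± 0.07, 0.02).

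These cr2 calls were lost without cr2_heat replicate 2 for PRR59 (adjusted p = 0.10), PRR95 (0.064), NAP (0.12), SGR (0.24) and PDIL1-1 (0.19). SGR was also lost without cr2_heat replicate 1 (0.12), WT_heat replicate 1 (0.057) or 2 (0.093), and PDIL1-1 without cr2_heat replicate 1 (0.10) or WT_heat replicate 1 (0.069), 2 (0.053) or 3 (0.055) or with the heat-treated libraries alone (0.07) or without the 2 libraries that stand apart (0.06).

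In cr12 only, 2 of 6 tested photosynthesis genes were called lower, where 3.22% of all tested genes were. DESeq2 called 4 lower in cr12 and limma voom 2. The 2 genes called by edgeR code for the small subunit of Rubisco, the enzyme that fixes carbon dioxide. A further gene of this subunit, LOC_Os12g17600, was not called in cr12 (-0.93 ± 0.33, adjusted p = 0.12). LOC_Os12g19470 stood at 657, 648 and 451 CPM in WT, 325 and 193 CPM in cr12 and 773 and 1090 CPM in cr2, and LOC_Os12g19381 at 2730, 3010 and 2080 CPM in WT, 1640 and 899 CPM in cr12 and 3130 and 3880 CPM in cr2. The cr12 libraries lay below and the cr2 libraries above WT in both genes, which may share reads as members of 1 family. The log2 differences in cr12 were -1.18 ± 0.29 (adjusted p = 0.037) and -1.04 ± 0.27 (0.049), and those between cr12 and cr2 were -1.85 ± 0.31 (0.0073) and -1.47 ± 0.30 (0.016). LOC_Os12g19470 lost its call in cr12 without WT_heat replicate 1 (0.11) or 2 (0.078) or cr12_heat replicate 2 (0.29). LOC_Os12g19381 lost it without WT_heat replicate 1 (0.12) or 2 (0.11), cr12_heat replicate 2 (0.35) or cr2_heat replicate 1 (0.066) or 2 (0.065). With the heat-treated libraries alone the adjusted p was 0.083 and 0.11. It was 0.06 and 0.092 with WT_heat replicate 2 and cr2_control replicate 2 both left out. LOC_Os12g19381 also lost its call with RLE scaling (0.053).

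These photosynthesis genes mark green leaf cells. Summed over the 6 listed photosynthesis genes, levels were 17400 to 25000 CPM in WT, 12900 to 17200 CPM in cr12 and 26300 to 29000 CPM in cr2. The cr12 libraries lay below and the cr2 libraries above WT, and the part of leaf makeup in this was not tested. Without heat the sum was 44800 to 51200 CPM in WT, 44000 and 37100 CPM in cr12 and 48300 and 72000 CPM in cr2, so that both cr12 libraries lay below every WT library there too. Over both lines together edgeR, DESeq2 and limma voom each called 0 of these 6 genes, of which 0 had an unadjusted p under 0.05.

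After heat the cold-response regulator DREB1A was higher in cr12 only. The order of the lines was the reverse without heat. Untreated DREB1A stood at 4.84, 5.95 and 3.23 CPM in WT, 2.89 and 2.47 CPM in cr12 and 7 and 10.7 CPM in cr2. There both cr12 libraries lay below and both cr2 libraries above every WT library. After heat the gene was low, at 0.431, 0.047 and 0.567 CPM in WT, 2.08 and 4.08 CPM in cr12 and 0.314 and 0.51 CPM in cr2. The cr12 libraries lay above all others, with a log2 difference of 3.13 ± 0.61 in cr12 (adjusted p = 0.017) and 2.89 ± 0.69 between the lines (0.033). The call was lost without cr12_heat replicate 2 (2.58, 0.13) or with the heat-treated libraries alone (0.086).

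Of the loci without a name in the files that were moved by 1 line, the highest and the lowest in each line are given among those with a mean of at least 1 CPM in the higher group. LOC_Os07g05850 had no count in heat-treated WT or cr2 and 14.2 and 11.5 CPM in cr12, at least 290-fold above WT. LOC_Os11g17799 had no count in cr12 and stood at 4.56, 4.38 and 5.88 CPM in WT and 4.99 and 4.09 CPM in cr2, at least 77.6-fold lower in cr12 than in WT. Both showed the same contrast between the lines without heat, with LOC_Os07g05850 at 40.5 and 43.7 CPM and LOC_Os11g17799 at 0 in untreated cr12. LOC_Os04g24770 had no count in heat-treated WT or cr12 and 5.84 and 6.6 CPM in cr2, at least 140-fold above WT. LOC_Os03g54160 stood at 14.7, 14.8 and 13.9 CPM in WT, 4.64 and 8.58 CPM in cr12 and 0.66 and 0.255 CPM in cr2 (-4.98 ± 0.54 in cr2, adjusted p = 0.00098). Here every cr12 library was also below WT, without a call (-1.13 ± 0.42, 0.14). Without heat LOC_Os04g24770 stood at 11.3 and 9.26 CPM in cr2 and at 0 in WT and cr12. LOC_Os03g54160 stood at 26.0, 28.4 and 32.9 CPM in untreated WT, 12.7 and 15.5 CPM in cr12 and 4.81 and 1.49 CPM in cr2. These 4 loci kept their calls in every fit that left out 1 heat-treated library.

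**Figure D5:**
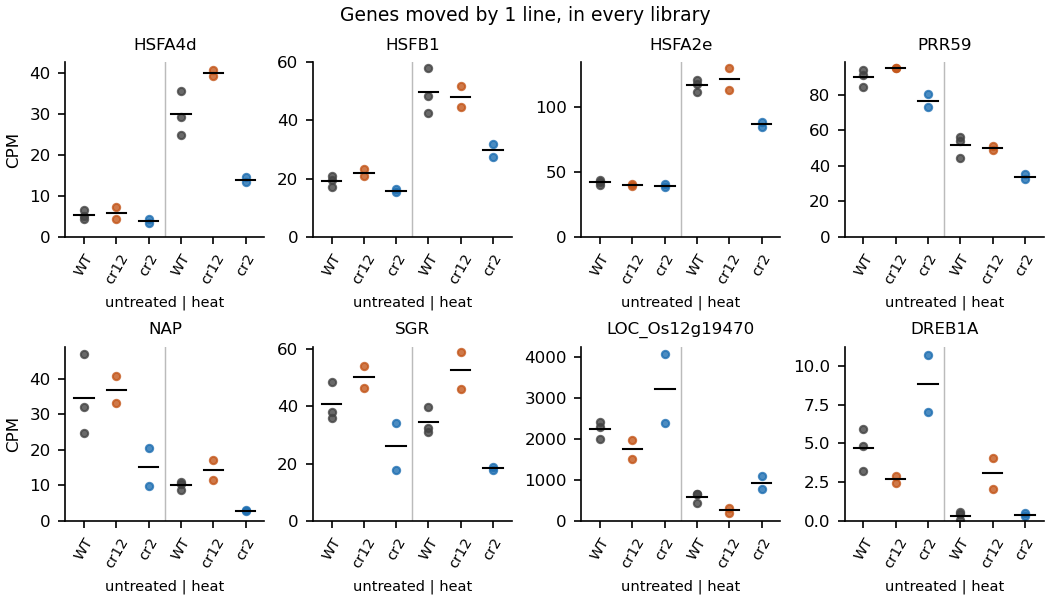
CPM of 8 genes moved by 1 line in every library (points) with the mean of each group (black bars), untreated left and heat-treated right of the grey line. After heat HSFA4d, HSFB1, HSFA2e, PRR59, NAP and SGR are lower in cr2 than in WT and cr12, LOC_Os12g19470 is lower and DREB1A higher in cr12.

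The remaining lists gave no call over both lines. Of 6 HSP90 genes and of 4 HSP100 genes, which include the disaggregase HSP101, edgeR, DESeq2 and limma voom each called 0, with 0 at an unadjusted p under 0.05. HSP101 stood at 3900, 4910 and 4490 CPM in WT, 4840 and 7090 CPM in cr12 and 2970 and 3660 CPM in cr2, so that the cr12 libraries overlapped WT or lay above it and the cr2 libraries lay below. Median log2 differences were -0.03 for HSP90, -0.01 for HSP100 and 0.02 for the 6 ER folding genes. Of the ER folding genes edgeR called 0, with 1 at an unadjusted p under 0.05, 1 by DESeq2 and 0 by limma voom. Of the 4 antioxidant enzymes all tools called 0, with 0 at an unadjusted p under 0.05. Of the 3 DREB1 genes edgeR called 0, with 1 at an unadjusted p under 0.05, 1 by DESeq2 and 0 by limma voom. Of the 2 senescence genes all tools called 0, with 1 at an unadjusted p under 0.05. Of the 137 listed genes 3 were too low to be tested, the sHSP gene LOC_Os02g12610, JAZ14 and JAZ15.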

How the data were processed

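Leaf RNA was sequenced from 14 libraries in 6 groups by genotype and treatment. The authors deposited 1 table of estimated counts for 55986 rice loci with MSU locus IDs. The submitters' processing notes name StringTie 1.3.3b, HISAT2 2.1.0, fastp 0.20.1 and DESeq2 with no roles, and the sources used here name no genome build. The deposited estimated counts are whole numbers, so rounding altered nothing. Low values gather near multiples of 4 (the value 4 occurs 9196 times, 3 occurs 3918 times and 5 occurs 5346 times), and about 4 counts were therefore taken as 1 fragment. Genes without a count in a group were set at a floor of 3 fragments (12 counts) over the group. Floors and depth cover counting error only. The spread between heat-treated replicates was 30.3 to 34.7 times the sampling variance (chi-square per degree of freedom).

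Tests were run in R 4.3.3 with edgeR 4.0.16, by quasi-likelihood after TMM scaling and filterByExpr, in 1 model with a mean for each of the 6 groups, in which groups of 2 libraries share the spread of all 14. The filter left 28823 genes with 99.99% of the counts, and 20235 loci had no count. P-values were adjusted by Benjamini-Hochberg over all tested genes. The ± after a log2 difference is an approximate SE, the log2 difference divided by the square root of F. CPM is on TMM-scaled library sizes and not per length, so levels of different genes were not compared. On simulated counts over 28076 genes, the comparison of both lines with WT recovered 61% of genes changed by 1 and 98% of those changed by 2 on the log2 scale. For cr12 these shares were 44% and 89%, and for cr2 50% and 94%. In the simulation 100 genes were changed by each amount, all with a mean of at least 1 CPM, and no other gene differed between groups. The spread was that of the fit itself. The real libraries differ in these respects, so the shares are not the power in these data.

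The 15 lists (137 genes) were written from background knowledge, and lists, members and tests were chosen with earlier results of these data known. The name table (39387 genes, assembly ASM3414082v1) holds no MSU IDs. For 94 listed genes that have an own symbol, it held 79, all on the chromosome of their ID. Loci outside the lists therefore carry no name. Named were HSFA2d, every listed gene called over both lines, up to 4 uncalled members of the HSF, JAZ, sHSP and dividing-cell lists with the smallest and largest log2 differences, the extreme unlisted loci called in each line without overlap and at 1 CPM or more, and per line the extreme unlisted genes at 1 CPM or more and all listed genes moved by it. The limit of 1 CPM is on the mean of the higher group. Genes named beyond this rule, such as LOC_Os01g04360, HSP101 and the JAZ and MYC2 calls of 1 line, were chosen after their values were seen. Alternatives were RLE scaling, no filter, DESeq2 1.42.0, limma 3.58.1 voom, counts divided by 4, the heat-treated libraries alone, the htg3 libraries as 1 group, leaving out each library, and, added after seeing the data, leaving out WT_heat replicate 2 and cr2_control replicate 2, which stand apart.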

Additional observations from a re-analysis of the deposited data

Results flagged for a closer look

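The lines cr12 and cr2 differed from each other after heat by their own test in 1620 genes, and the htg3 effect differed with and without heat in 33. Among listed genes moved by 1 line, the log2 difference of cr12 minus cr2 was 0.71 for HSFA2c (edgeR adjusted p = 0.023) and 0.49 for HSFA2e (0.013). It was 0.65 for HSFA4b (0.023), 1.52 for HSFA4d (0.0067) and 0.70 for HSFB1 (0.023). In each of these genes both cr12 libraries lay above both cr2 libraries. The difference was 0.57 for PRR59 (0.017) and 0.49 for PRR95 (0.028) among clock genes. For the senescence genes it was 2.31 for NAP (0.005) and 1.51 for SGR (0.008), and for DREB1A it was 2.89 (0.033). Negative differences, with both cr12 libraries below both cr2 libraries, were -0.37 for PDIL1-1 (0.031), -1.85 for the Rubisco small subunit gene LOC_Os12g19470 (0.0073) and -1.47 for LOC_Os12g19381 (0.016). Other listed genes differed between the lines without a call against WT in either line. These were HSFB2a (1.10, 0.014), DREB1B (3.39, 0.025) and the Rubisco small subunit gene LOC_Os12g17600 (-1.36, 0.048).

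Of the loci without a name, LOC_Os07g05850 was at least 201-fold higher in cr12 than in cr2 (adjusted p = 0.0042), LOC_Os11g17799 at least 71.1-fold lower (2e-04) and LOC_Os04g24770 at least 97.5-fold lower (0.0019), each against a line with no count. LOC_Os03g54160 differed by 3.85 (0.0034).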

How the results depend on the processing

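No paired analysis was possible because the labels give no replicate numbers. Leaving out 1 library in turn gave 718 to 2498 genes called for the htg3 lines against WT after heat, 142 to 2039 for cr12, 142 to 2507 for cr2, 87 to 1757 for cr12 against cr2, 331 to 778 without heat and 0 to 84 for the difference of the htg3 effect with and without heat. The ranges were 713 to 2485 for genes with the same sign in both lines, 642 to 2312 for both-line genes, 66 to 906 for those called in each line, 75 to 863 for genes moved by 1 line (24 to 450 for cr12 and 44 to 451 for cr2), 1 to 11 for dividing-cell genes higher and 1 to 3 for sHSP genes lower.

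DESeq2 called 4404 genes for the htg3 lines, 3560 for cr12, 4457 for cr2, 2904 for cr12 against cr2, 2246 without heat and 1249 for the difference with and without heat. By DESeq2 4305 genes had the same sign in both lines, 3827 were both-line genes, 1381 were called in each line and 1920 were moved by 1 line (889 by cr12 and 1031 by cr2), with 12 dividing-cell genes higher. The heat-treated libraries alone gave 758, 334 and 960 calls for the htg3 lines, cr12 and cr2, 776 for cr12 against cr2, 753 with the same sign, 700 both-line genes, 150 called in each line, 323 moved by 1 line (84 by cr12 and 239 by cr2) and 1 dividing-cell gene. The htg3 libraries as 1 group gave 1377. Without the 2 libraries that stand apart there were 1004 calls for the htg3 lines, 1325 for cr2, 993 with the same sign, 867 both-line genes, 300 called in each line and 2 dividing-cell genes. The difference with and without heat was called for 12 genes with RLE, 126 without a filter, 10 with voom and 50 with counts divided by 4. Dividing-cell genes higher numbered 9 without a filter or with counts divided by 4 and 10 with voom, and sHSP genes lower 5 with voom and 6 with counts divided by 4. The cause of these changes was not tested.

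Of these counts 98 alternative values stayed within 1.5 times and 106 did not. For the 36 single genes 421 of 523 values kept their call, 102 lost it, and 0 turned in direction, with 12 genes keeping theirs throughout, HSFA2d among them as not called. Changes under 2-fold were not simulated. Many were called, since 635 of the 2077 genes called for the htg3 lines changed at least 2-fold. With 2 libraries a line, a missing call does not show that a gene was unchanged.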
